A study of Mus musculus with 5 samples.

Results

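The cells described here are 288 cells of the mouse ileum, the distal small intestine, that carried transcripts of crypt base stem cell genes. They are 288 of 18955 kept cells, which had 500 or more genes detected and no more than 20% of their transcripts from mitochondrial genes. The cells were chosen by their own counts: at least 2 of 6 genes, Lgr5, Ascl2, Gkn3, Smoc2, Rgmb and Axin2, had to be detected. Each cell also had to have fewer than 4 of 10 mitotic genes detected, and less than 10% of its transcripts from Lyz1 and the Defa genes, which Paneth cells make in bulk. Because these 16 genes and the antimicrobial genes chose the cells, their values are given as a description, without a test.

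The study profiled single epithelial cells from the ileum of C57BL/6 mice aged 8 to 12 weeks by droplet 3′ RNA sequencing. It asked how the remaining ileum differs after small bowel resection, the surgical removal of part of the gut, in comparison with sham surgery. There were 3 libraries from sham-operated mice and 2 from resected mice, and the labels give no other genotype, agent or time after surgery. The labels do not say whether each library came from its own mouse, so every p-value measures the spread between these libraries.

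Stem cells at the crypt base divide to renew the intestinal epithelium, and they sit between Paneth cells that supply Wnt ligands. Wnt signalling, amplified by R-spondin through the receptor Lgr5, keeps the transcription factor Ascl2 and the feedback inhibitor Axin2 active. Their daughters move up into a dividing progenitor zone and then become absorptive enterocytes or secretory cells. Smoc2 and Gkn3 encode secreted proteins used as crypt base markers, Rgmb encodes a co-receptor of bone morphogenetic proteins, Olfm4 a secreted glycoprotein of the crypt base, and Slc12a2 a chloride cotransporter of crypt cells.

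Kept cells numbered 1296, 3914 and 2848 for sham 1, 2 and 3, and the resection libraries held 3792 and 7105. The stem-marker cells carried 66712, 253397 and 747776 unique molecular identifiers (UMIs, each counting 1 captured transcript) in the sham libraries, and 450070 and 769138 in the resection libraries. In sham 1 a single UMI was therefore worth 15.0 counts per 1000000 UMIs (CPM), against 1.30 to 3.95 in the other libraries. The median depth of a stem-marker cell lay between 4781 and 6260.5 UMIs. Sham 1 and resection 1 had the higher median mitochondrial share among kept cells, 13.3% and 11.6%, against 7.23% to 9.13% in the others. No cell barcode was shared between stem-marker cells of different libraries, while any pair of libraries shared 6 to 45 barcodes among kept cells.

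The name of crypt base stem cell held for only some of these cells. Of the 288, 126 (43.8%) had a UMI of Lgr5, Ascl2 or Gkn3. Of the rule genes, these were found in the smallest shares of the remaining cells, though they also helped to choose the stem-marker cells. The other 162 entered through 2 or more of Smoc2, Rgmb and Axin2. For this reason the whole set is called stem-marker cells below. Lgr5 was detected in 0 of the 11 stem-marker cells of sham 1. In sham 2 and 3 it was detected in 19.4% and 19.7% of them, and in resection 1 and 2 in 17.5% and 25.7%. Over all libraries Lgr5 was found in 20.8% of stem-marker cells, 0.86% of T cell droplets and 0.165% of the remaining cells. The median depths of these classes were 5880, 5541 and 4861 UMIs. Other classes, which the remaining cells leave out, also carried Lgr5. It was found in 5.27% of antimicrobial cells, 4.61% of mitotic cells and 1.64% of S-phase progenitors. Of all kept cells 218 had Lgr5, and 60 of these were stem-marker cells. T cell droplets, those with 3 or more markers of a T cell list, can also hold epithelial transcripts. Beside T cell droplets and the remaining cells, Axin2 was less restricted than Lgr5. It had a UMI in 68.1% of stem-marker cells, 11.02% of T cell droplets and 7.14% of the remaining cells.

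Olfm4 and Slc12a2 were not used to choose the cells. Slc12a2 was detected in 45.5%, 54.8% and 63.2% of the stem-marker cells of sham 1, 2 and 3, and in 59.6% and 65.5% of those of resection 1 and 2. In T cell droplets it was detected in 7.75% of cells and in the remaining cells in 4.38%. The other crypt classes came much closer: 53.5% of S-phase progenitors and 50.7% of mitotic cells, against 61.8% of all stem-marker cells. Olfm4 was detected in 0%, 9.68% and 31.6% of the sham stem-marker cells, and in 14.04% and 19.5% of the resection ones. Sham 1 stood apart: none of its stem-marker cells had Lgr5, Gkn3 or Olfm4, only 1 had Ascl2, and none had 3 or more of the 6 rule genes. With 11 cells, a count of 0 there leaves room for a share of up to 28.5% (exact 95% interval), so an absence cannot be read from it.

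**Figure D1:**
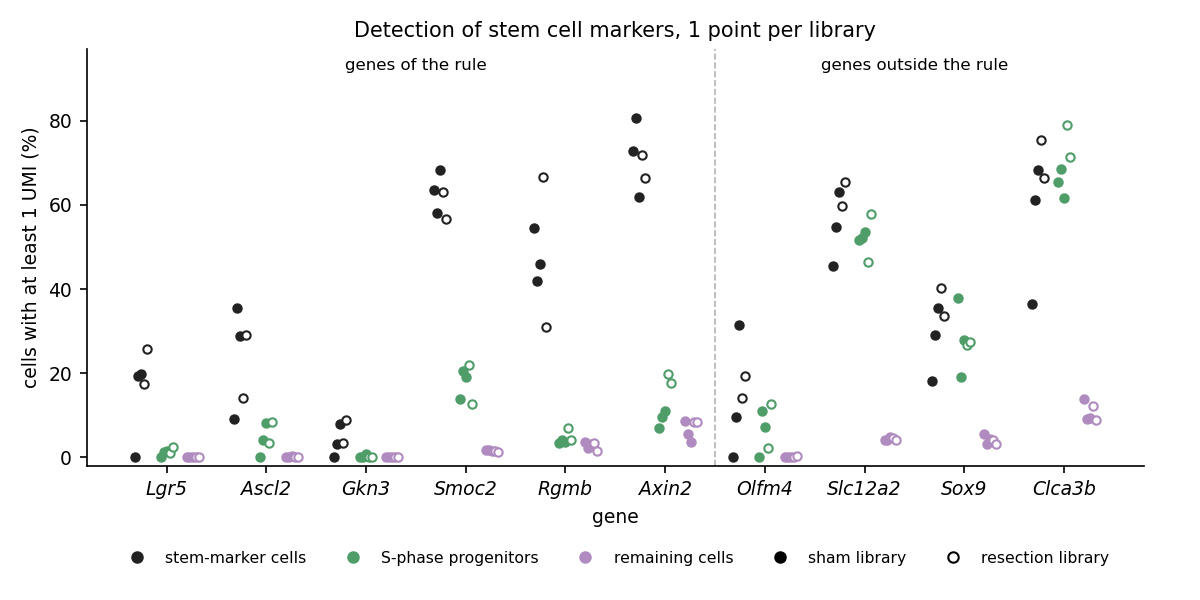
Percentage of cells with at least 1 UMI (vertical axis) of 10 genes (horizontal axis) in stem-marker cells, S-phase progenitors and remaining cells, with 1 point per library, filled for sham and open for resection. Smoc2, Rgmb and Axin2 were found in more stem-marker cells than Lgr5, Ascl2 and Gkn3, and Slc12a2, outside the rule, was found in 45.5% to 65.5% of them.

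The pairs of genes through which cells entered the set differed in what else the cells carried. The most frequent were Smoc2 with Axin2 (59 cells), Rgmb with Axin2 (58 cells) and Smoc2 with Rgmb (33 cells). Slc12a2 was detected in 59.3%, 24.1% and 36.4% of these cells, respectively. Among the cells that entered through Ascl2 with Smoc2 (17 cells), Ascl2 with Axin2 (17 cells) or Lgr5 with Axin2 (12 cells), it was detected in 94.1%, 88.2% and 83.3%. The Rgmb and Axin2 pair also held 31 of the 82 stem-marker cells with at least 2% of their UMIs from a list of 15 enterocyte genes, such as Apoa1, Apoa4, Lct, Sis and Fabp1.

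The share of enterocyte transcripts split the set further, by a limit of 2% that was set after the values were seen. The 206 cells under it had a median of 7.19% of their UMIs from a list of 18 ribosomal protein genes and had Slc12a2 in 72.3%. The 82 cells at or above it had a ribosomal median of 2.75% and had Slc12a2 in 35.4%. For comparison, the ribosomal median was 1.56% in the remaining cells, which are mostly rich in enterocyte transcripts, and 6.24% in S-phase progenitors. Of the 21 stem-marker cells that the doublet score marked as likely pairs of cells, 20 had at least 2% enterocyte transcripts. The part that doublets or free RNA played in the enterocyte transcripts of these cells was not tested.

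**Figure D2:**
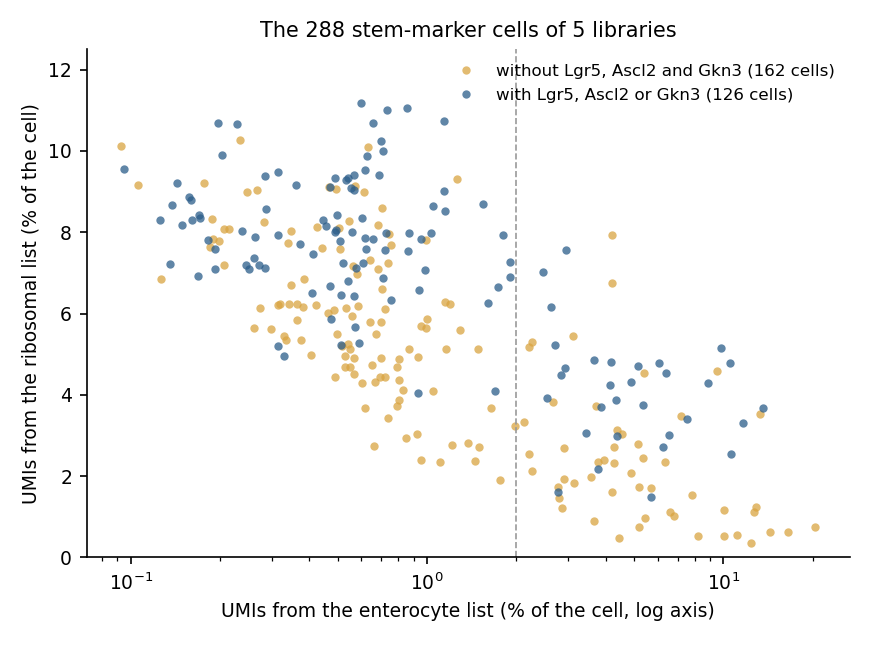
Each point is 1 of the 288 stem-marker cells, placed by the percentage of its UMIs from the enterocyte list (horizontal, log axis) and from the ribosomal protein list (vertical), and coloured by detection of Lgr5, Ascl2 or Gkn3. The dashed line marks 2%; the 82 cells to its right have a lower median ribosomal share, 2.75%, than the 206 to its left, 7.19%.

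Cells just inside and just outside the limits of the rule can be set side by side. Most stem-marker cells (225) had exactly 2 rule genes, and Slc12a2 was found in 54.7% and Olfm4 in 12.4% of them. The 63 cells with 3 or more had Slc12a2 in 87.3% and Olfm4 in 46.0%. Outside the set, 2034 cells had only 1 rule gene, with Slc12a2 in 13.9% and Olfm4 in 2.26%. A further 231 cells had 2 or more rule genes but were left out for 4 or more mitotic genes, and 79.7% of these had Slc12a2. Another 62 were left out for their antimicrobial share alone; they were deep, with a median of 31068.5 UMIs, and 43.5% had Lgr5.

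Among markers of other cell types, 3 or more of a T cell list (12 genes, 10 of them in the gene table) were found in 8 stem-marker cells. Gzma alone had a UMI in 13.9% of stem-marker cells, 13.9% of S-phase progenitors and 14.4% of all kept cells. The summed T cell list was highest in sham 1, at 0.166% of UMIs, where most of the 42 Gzma UMIs came from 1 cell. The sum was 0.0442% in sham 2, 0.0250% in sham 3, 0.00378% in resection 1 and 0.0238% in resection 2. In the remaining cells it ranged from 0.00283% to 0.0113%. Of 10 tuft cell markers 9 or 10 were at 0 in each library, and of 8 stromal markers 7 or 8. Goblet markers summed to 0.399% to 1.15% of UMIs in stem-marker cells and 0.397% to 0.748% in the remaining cells. The list includes Guca2a, which averaged 1572 CPM in stem-marker cells. In all other kept cells without T cell droplets it averaged 3043 CPM. Neither these sums nor the counts that follow are therefore a measure of goblet cells alone. At least 3 goblet markers with 20 or more UMIs together were found in 27.3%, 45.2% and 30.3% of the stem-marker cells of sham 1, 2 and 3. In resection 1 and 2 it was 29.8% and 33.6%. The same count was not made in the other classes.

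The share of stem-marker cells among kept cells did not separate the groups. It was 0.849% in sham 1 (11 of 1296 cells, exact 95% interval 0.424% to 1.51%), 0.792% in sham 2 (31 of 3914, 0.539% to 1.12%) and 2.67% in sham 3 (76 of 2848, 2.11% to 3.33%). It was 1.50% in resection 1 (57 of 3792, 1.14% to 1.94%) and 1.59% in resection 2 (113 of 7105, 1.31% to 1.91%). Both resection libraries lay inside the sham range, and sham 3 had the highest share. The sham mean was 1.44% ± 1.07 (SD, n = 3) and the resection mean 1.55% ± 0.0617 (SD, n = 2), which is 0.110 percentage points more (two-sided exact permutation test, p = 1, where the smallest p that 3 against 2 libraries allow is 0.1).

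**Figure D3:**
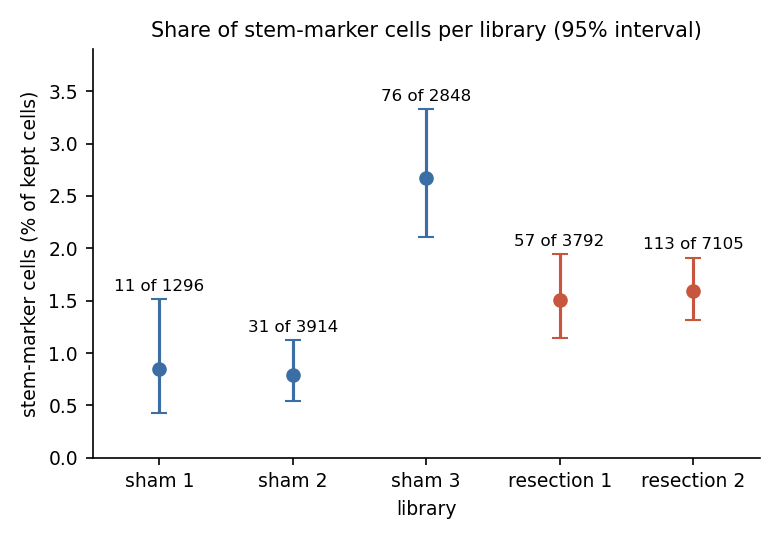
Stem-marker cells as a percentage of kept cells (vertical axis) in each library (horizontal axis), with exact 95% intervals that cover counting error only and the number of cells above each point. Sham 3, at 2.67%, lies above both resection libraries, and sham 1 and 2 lie below them.

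The difference in share was small beside the spread between libraries. It was -0.183 points without sham 1, -0.212 without sham 2 and 0.726 without sham 3. When each cell was first thinned to 2000 UMIs, no kept cell was shallower, and the shares were 0.231%, 0.256% and 0.772% in sham against 0.316% and 0.521% in resection. The difference was then -0.00121 points, beside a sham SD of 0.306. Within the pair of libraries with the higher mitochondrial share, sham 1 and resection 1, the difference was 0.654 points, and within the other 3 libraries it was -0.140 points. Among crypt cells alone, those with 2 or more rule genes, 4 or more of 20 S-phase genes or 4 or more mitotic genes, stem-marker cells made up 11.4% ± 1.95 (SD, n = 3) in sham and 14.1% ± 2.48 (SD, n = 2) in resection (exact permutation test, p = 0.4).

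The share of stem-marker cells with S-phase transcripts overlapped between the groups. At least 4 S-phase genes were detected in 139 of the 288 cells (48.3%). The share was 36.4% of 11, 48.4% of 31 and 60.5% of 76 cells in sham 1, 2 and 3, and 43.9% of 57 and 43.4% of 113 cells in resection 1 and 2. Both resection values lay inside the sham range, and no test was made of this score.

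Resection was followed by a higher level of 1 gene in stem-marker cells. Counts were summed over the stem-marker cells of each library and 5447 genes were tested with edgeR's quasi-likelihood test, and 1 gene (0.0184%) had a Benjamini-Hochberg adjusted p under 0.05. This gene was Apoa4 (GRCm38 chr9:46240696-46243459, plus strand), which encodes apolipoprotein A-IV, a protein of the fat-carrying particles that enterocytes secrete. Its TMM-normalized level was 197, 112 and 132 CPM in sham 1, 2 and 3, and 2983 and 1226 CPM in resection 1 and 2. The groups did not overlap, and the resection library was the higher one both among the libraries of higher mitochondrial share (sham 1 and resection 1) and among the others. The log2 fold change was 3.91 ± 0.48 (SE; edgeR adjusted p = 0.00755). By an unadjusted p under 0.05, 123 genes passed (2.26%), 76 higher (1.4%) and 47 lower (0.863%), and DESeq2 also called 1 gene.

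Apoa4 was higher after resection in other cell classes too. In plain CPM without TMM scaling, stem-marker cells had 98.7 to 210 in sham and 3022 and 1109 in resection. S-phase progenitors, the nearest class, had 32.7 to 369 in sham and 2564 and 1127 in resection. Mitotic cells had 36.6 to 183 in sham and 1378 and 705 in resection. Antimicrobial cells had 39.3 to 182 in sham and 714 and 1132 in resection. The remaining cells had 172 to 578 in sham and 6573 and 3175 in resection. T cell droplets had 234 to 497 in sham and 8046 and 2818 in resection, more than stem-marker cells in each library. Of those droplets 68.7% had at least 2% enterocyte transcripts, against 28.5% of stem-marker cells and 71.5% of the remaining cells. They are therefore not a class free of enterocyte transcripts. At least 2% was reached by 17.4% of S-phase progenitors, 13.0% of mitotic cells and 14.2% of antimicrobial cells. Tested directly, the resection effect in stem-marker cells differed from that in the other epithelial cells by 0.10 ± 0.22 on the log2 scale (edgeR adjusted p = 0.986).

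Apoa4 is itself 1 of the 15 genes of the enterocyte list, so limiting the cells by that list also limits Apoa4, and its lower level there is no finding. In the 206 stem-marker cells under 2% it was 86.1, 63.6 and 21.8 plain CPM in sham and 580 and 340 in resection, a log2 fold change of 3.36 (edgeR adjusted p = 0.000341). Of the Apoa4 UMIs in stem-marker cells, the single highest cell held 4 of 14, 4 of 25 and 55 of 91 in sham and 176 of 1360 and 120 of 853 in resection. The call was lost without sham 2 (3.74, adjusted p = 0.372), in cells with at least 3 rule genes (6.00, adjusted p = 0.0623) and in cells with Lgr5 (5.08, adjusted p = 0.0600). It was also lost when the rule was applied to thinned cells (1.73, adjusted p = 0.999), which left 3, 10 and 22 cells in sham and 12 and 37 in resection. The part that transcripts from other cells played in this result was not tested.

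Of the other genes on a list marking the proximal small intestine, Lct, Apoc3 and Rbp2 had the lowest p, and none passed the test. Lct encodes lactase, the milk sugar enzyme of the brush border, and had 42.3, 35.7 and 11.6 CPM in sham against 204 and 116 in resection (log2 fold change 2.84 ± 0.51, edgeR adjusted p = 0.215). Apoc3 encodes apolipoprotein C-III and is the neighbour of Apoa4 at chr9:46232933-46235636. It had 155, 174 and 114 CPM in sham against 509 and 548 in resection (1.87 ± 0.37, edgeR adjusted p = 0.326). Rbp2, a retinol carrier inside absorptive cells, had 367, 643 and 515 CPM against 1551 and 1293 (1.46, edgeR adjusted p = 0.943). For each of these genes the resection libraries lay above all sham libraries, as they did for 467 of all tested genes (8.57%), and this was a condition for naming Apoa4, Lct and Apoc3. An alternative fit had a term that set sham 1 and resection 1 apart from the other libraries. Mitochondrial values themselves were not in that model. There Lct, Apoc3 and Rbp2 passed the test together with Apoa4 and Fabp2, and Pfn1 passed it as lower.

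The list of proximal genes held 20, of which 11 were tested. Apoa4 alone was called, 9 had log2 fold changes above 0, and the median was 1.46, against 0.00 over all tested genes. The median was 0.80 without sham 1 and 0.29 over the 7 genes tested in cells under 2% enterocyte transcripts. The proximal list shares genes such as Apoa4 and Lct with the enterocyte list, so the 2% limit also limits those genes. The lower median under that limit, over fewer genes, is therefore no finding. The proximal list was chosen with results of these data known. Lists on fat and vitamin A use had no call: 16 tested genes of fat oxidation had 5 values above 0 and 11 below (median -0.05), and 7 tested retinoid genes had 4 above and 3 below (median 0.27). The first median turned positive without resection 2 or sham 3, and the second turned negative without resection 1 or sham 3. Of 16 genes marking the distal small intestine, 13 were tested, none was called, and the median was -0.24, or -0.12 without resection 1. Fabp6, the bile acid carrier of ileal enterocytes, had 19194, 10975 and 19532 CPM in sham against 3200 and 8516 in resection (-1.50 ± 0.49, edgeR adjusted p = 1). Its resection libraries lay below the sham range, as did those of 331 genes (6.08%).

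**Figure D4:**
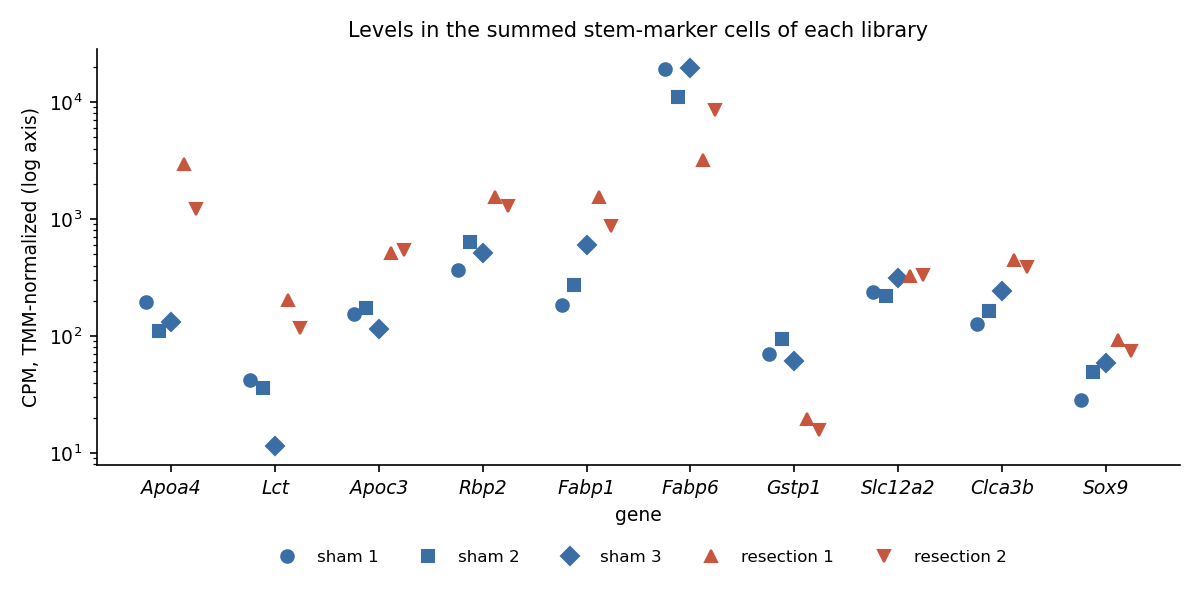
TMM-normalized CPM (log axis) of 10 genes (horizontal axis) in the summed stem-marker cells of each library, with blue symbols for sham and red for resection. Apoa4, Lct, Apoc3, Rbp2 and Fabp1 lie higher in both resection libraries and Fabp6 and Gstp1 lower; only Apoa4 passed the test.

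Genes of stem cell identity did not pass the test in either direction. Of 28 crypt stem cell markers outside the rule, 16 were tested, none was called, and 12 had log2 fold changes above 0, with a median of 0.21, or 0.53 without sham 3. Slc12a2 had 240, 219 and 312 CPM in sham against 327 and 333 in resection (0.34 ± 0.35, edgeR adjusted p = 1). Clca3b had 127, 165 and 243 CPM against 445 and 392 (1.15 ± 0.37, edgeR adjusted p = 1). Sox9, a transcription factor of crypt cells, had 28.2, 49.1 and 59.3 CPM against 92.1 and 74.7 (0.68 ± 0.37, edgeR adjusted p = 1). These 3 are among 4 of the 16 markers with resection libraries above the sham range, against 8.57% of all tested genes, and none of the 16 lay below it. Phlda1 had the lowest value of the list, with 155, 31.2 and 280.5 CPM in sham against 46.1 and 91.97 in resection, and its groups overlapped (-1.24 ± 0.61, edgeR adjusted p = 1).

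Olfm4 had 0, 13.4 and 52.1 CPM in sham and 30.7 and 41.7 in resection, so its groups overlapped (0.09 ± 0.55, edgeR adjusted p = 1). Its counts were small, at 0, 3 and 36 UMIs in sham and 14 and 29 in resection. Of the rule genes, given without a test, Lgr5 had 0, 26.8 and 24.6 CPM in sham and 30.7 and 48.9 in resection. Ascl2 had 14.1, 75.9 and 37.6 CPM in sham and 26.3 and 70.4 in resection, and Smoc2 had 127, 93.7 and 99.8 against 96.5 and 121. Those of Ascl2 and Smoc2 overlapped between groups. Gkn3, with 0 to 10 UMIs per library, did not pass the filter on low counts.

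The signalling pathways of the crypt base were likewise without a call. Among 21 Wnt pathway genes, 12 were tested, 11 of them above 0, with a median log2 fold change of 0.26, or 0.11 without resection 1. The receptor Lgr4 had 70.5, 53.6 and 63.6 CPM in sham against 100.9 and 66.1 in resection. Of 14 Notch genes 3 were tested, all below 0, with a median of -0.34 that became 0.0439 without sham 2. Of 13 bone morphogenetic protein and TGF-beta genes 8 were tested, 4 on each side of 0. Of 15 epidermal growth factor pathway genes 6 were tested, with a median of 0.22 that became -0.22 without resection 1, -0.28 without sham 2 and 0.43 without resection 2. Of 8 genes linked to reserve stem cells 3 were tested, with a median of 0.84, or 0.52 without resection 1.

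Division and growth genes had medians near 0. The 15 tested genes of the S-phase list had a median log2 fold change of 0.05, the 18 ribosomal protein genes 0.16 and the 13 tested growth and translation genes 0.10. All 3 medians turned when a library was left out. Those of the S-phase list were -0.14 without resection 2 and -0.15 without sham 2. Those of the ribosomal list were -0.29 without resection 2, -0.14 without sham 1 and 0.50 without resection 1, and the growth list was -0.0314 without resection 2 and -0.00347 without sham 1. Genes of injury-linked or fetal-like epithelium had a median of -0.47 over 6 tested genes, and -0.92 without resection 2. None of these genes was called.

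A list of 13 unfolded protein response genes, which serve protein folding in the endoplasmic reticulum, had 12 members below 0 and a median log2 fold change of -0.61. None was called. Creld2 had 113, 53.6 and 95.4 CPM in sham against 35.1 and 35.9 in resection (-1.24 ± 0.40, edgeR adjusted p = 1). Pdia4, a disulfide isomerase, had 98.7, 31.2 and 47.7 CPM against 17.5 and 17.2 (-1.49 ± 0.48, edgeR adjusted p = 1). Both are among 4 of the 13 with resection libraries below the sham range, against 6.08% of all tested genes, and Sdf2l1 overlapped. The 9 tested goblet cell markers were also all below 0, with a median of -0.37 and no call. Among 19 alternative settings the median ranged from -0.71 to -0.17 for the unfolded protein response list and from -1.21 to 0.74 for the goblet list, so the latter changed direction. It was 0.14 without sham 1.

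A few other genes led the list by p without passing the test. Gstp1, a glutathione transferase, had 70.5, 93.7 and 60.7 CPM in sham against 19.7 and 15.8 in resection (-2.04 ± 0.42, edgeR adjusted p = 0.364). Ada, adenosine deaminase, had 0, 4.46 and 13.0 CPM against 54.8 and 51.7 (2.42 ± 0.52, edgeR adjusted p = 0.452). The membrane peptidase gene Mme had 14.1, 22.3 and 13.0 CPM against 89.9 and 41.7 (2.01 ± 0.50, edgeR adjusted p = 0.925). Groups that did not overlap were a condition for naming these 3 genes, and 14.7% of all tested genes met it. The T cell genes Gzma and Ccl5 were lower in resection (-2.49 and -2.17, edgeR adjusted p = 1 for both), but single cells held most of their counts: 40 of 42 Gzma UMIs in sham 1 came from 1 cell. Without T cell droplets the Gzma value was 0.33.

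Whether resection affected stem-marker cells differently from the rest of the epithelium was tested with a class by treatment term over 9726 genes. edgeR's quasi-likelihood test called 8 genes (0.0823%), 5 with a positive difference (0.0514%) and 3 with a negative one (0.0308%), and DESeq2 called 0, with 172 at an unadjusted p under 0.05. Fabp1, a fatty acid carrier of proximal enterocytes, went from a sham mean of 295 to a resection mean of 1019 CPM in stem-marker cells and from 383 to 2850 CPM in the other epithelial cells, a difference in log2 fold change of -1.09 ± 0.21 (edgeR adjusted p = 0.000655). Edn1, the endothelin-1 gene, had a positive difference of 1.82 ± 0.30 (edgeR adjusted p = 1.52e-05), from 28.2 to 87.2 CPM in stem-marker cells and 127 to 81.0 CPM in the others. Its UMIs in stem-marker cells were 2, 7 and 30 in sham and 72 and 33 in resection. Without resection 1 the Edn1 difference was 0.95 and was not called (edgeR adjusted p = 0.998). The count of called genes was 3 without resection 1 and 67 without sham 2.

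Stem-marker cells were then compared with their nearest neighbours in the crypt, the S-phase progenitors. These were 488 cells with at least 4 S-phase genes, fewer than 2 rule genes and the same limits on mitotic and antimicrobial genes. T cell droplets were left out of the progenitors, while 8 stem-marker cells with 3 or more T cell markers were kept. The progenitors numbered 29, 73 and 136 in sham and 86 and 164 in resection. Each library gave both a stem-marker and a progenitor sum, and library was a term in the model. Of 5567 genes that neither gate used, 137 (2.46%) were called by edgeR, 85 higher (1.53%) and 52 lower (0.934%) in stem-marker cells.

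Slc12a2 was higher in stem-marker cells. It had 241, 217 and 310 CPM in the stem-marker cells of sham 1, 2 and 3 and 325 and 333 in those of resection 1 and 2. The progenitors of the same libraries had 108, 229, 149, 169 and 189 CPM. It was higher in 4 of 5 libraries, with sham 2 the exception, and the log2 fold change was 0.80 ± 0.12 (edgeR adjusted p = 2.08e-05). Dmbt1, a mucosal glycoprotein gene, was lower in all 5 libraries, with 694, 941, 448, 1065 and 472 CPM against 1911, 1145, 740, 1645 and 717 CPM (-0.68 ± 0.10, edgeR adjusted p = 2.08e-05). Slc12a2 stayed higher and Dmbt1 lower, with adjusted p under 0.05, in each of 13 alternative settings.

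Olfm4 and Igfbp4, a growth factor binding protein gene, were also higher in stem-marker cells (1.44 ± 0.31 and 1.29 ± 0.25, edgeR adjusted p = 0.00422 and 0.00175). Both rested on sham 3 and the resection libraries, being higher in 3 of 5 libraries. Bmp2, a bone morphogenetic protein ligand, averaged 81.2 CPM ± 34.7 (SD, n = 5) in stem-marker cells and 39.7 CPM ± 26.7 (SD, n = 5) in progenitors (0.92, edgeR adjusted p = 0.00172). Of 15 enterocyte markers 7 were higher, among them Apoa1 and the sucrase gene Sis, and none was lower, with a list median of 0.37 against 0.00 over all tested genes. Of 13 tested distal markers 5 were higher, Fabp6 among them. Tubb5 and Ccnd1, a tubulin and a cyclin gene of dividing cells, were lower (-0.63 and -0.41, edgeR adjusted p = 0.00232 and 0.0477). Among cells in S phase alone, described next, Tubb5 was 0.22, Ccnd1 0.0909 and Bmp2 -0.0440.

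The gates made these classes differ in S phase: all progenitors but only 48.3% of stem-marker cells had 4 or more S-phase genes. The comparison was therefore repeated with the 139 stem-marker cells that met the S-phase limit themselves, 4, 15 and 46 in sham and 25 and 49 in resection. Of 4145 genes, 224 (5.4%) were called, 78 higher (1.88%) and 146 lower (3.52%). The calls shared by both comparisons were 4 higher and 2 lower genes, and 19 genes that were higher in all stem-marker cells were lower in those in S phase. Both comparisons share their progenitors and 139 of their stem-marker cells.

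Among cells in S phase, 7 of the 11 tested crypt stem cell markers were higher in stem-marker cells and 2 lower, and the list's median log2 fold change was 0.93, against -0.03 over all tested genes. Slc12a2 had 449, 413, 632, 714 and 414 CPM against 120, 237, 157, 185 and 200 in the progenitors of sham 1, 2 and 3 and resection 1 and 2. All 5 libraries were higher and the ranges did not overlap (1.54 ± 0.16, edgeR adjusted p = 5.34e-09). Cdk6, a cell cycle kinase gene, had 187, 155, 160, 155 and 88.1 CPM against 18.1, 61.3, 51.3, 59.6 and 51.4 (1.37 ± 0.23, edgeR adjusted p = 0.000151), again without overlap. The water channel gene Aqp4 (1.63), Clca3b (1.14), Sox9 (1.04), Cdca7 (0.93) and Prom1 (0.71) were the other higher members, with adjusted p from 1.04e-05 to 0.0343. Clca3b, Aqp4 and Sox9 were not higher in sham 1, which gave 4 cells. Over all stem-marker cells, neither Cdk6 nor any of these other higher members was called. Of 13 alternative settings, this one included, Clca3b was called in 3, Cdk6, Sox9 and Cdca7 in 2 each and Prom1 in 1. Aqp4 was called in 1 of 11.

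Other genes were higher in the S-phase stem-marker cells as well. These included the Notch-linked gene Hes6 (1.08), the antigen presentation genes H2-Eb1 (1.19) and Cd74 (0.77), and the growth genes Npm1, Ncl and Nop56. Of 13 tested growth and translation genes these 3 were called higher and none lower. Cd74 averaged 398 CPM ± 242 (SD, n = 5) in stem-marker cells and 231 CPM ± 153 (SD, n = 5) in progenitors (edgeR adjusted p = 0.000973).

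Enterocyte genes lay on the other side of 0 in this comparison. Of the 15 enterocyte markers none was higher and 5 were lower, with 15 of 15 fold changes below 0 and a median of -0.46. Sis had 358 CPM ± 232 (SD, n = 5) in S-phase stem-marker cells against 574 CPM ± 287 (SD, n = 5) in progenitors (-0.91 ± 0.18, edgeR adjusted p = 0.00137), whereas over all stem-marker cells it was 0.43 higher. Apoa1 was -0.34 and Fabp6 -0.53, neither called. Of 13 distal markers 6 were lower, among them the bile acid exporter genes Slc51a and Slc51b.

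Of 5 tested epidermal growth factor pathway genes 2 were called lower in the S-phase stem-marker cells, Areg and Hbegf. Areg, which encodes the epidermal growth factor receptor ligand amphiregulin, had 112, 38.7, 35.8, 56.5 and 197 CPM against 217, 181, 426, 162 and 255 (-1.55 ± 0.26, edgeR adjusted p = 0.000151), lower in all 5 libraries. Hbegf encodes a related ligand. Of 14 tested early response and stress genes 5 were lower, Atf3, Zfp36, Junb, Klf6 and Egr1, and Hsp90aa1 was higher. Over all stem-marker cells Areg was not called and its value was 0.24.

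**Figure D5:**
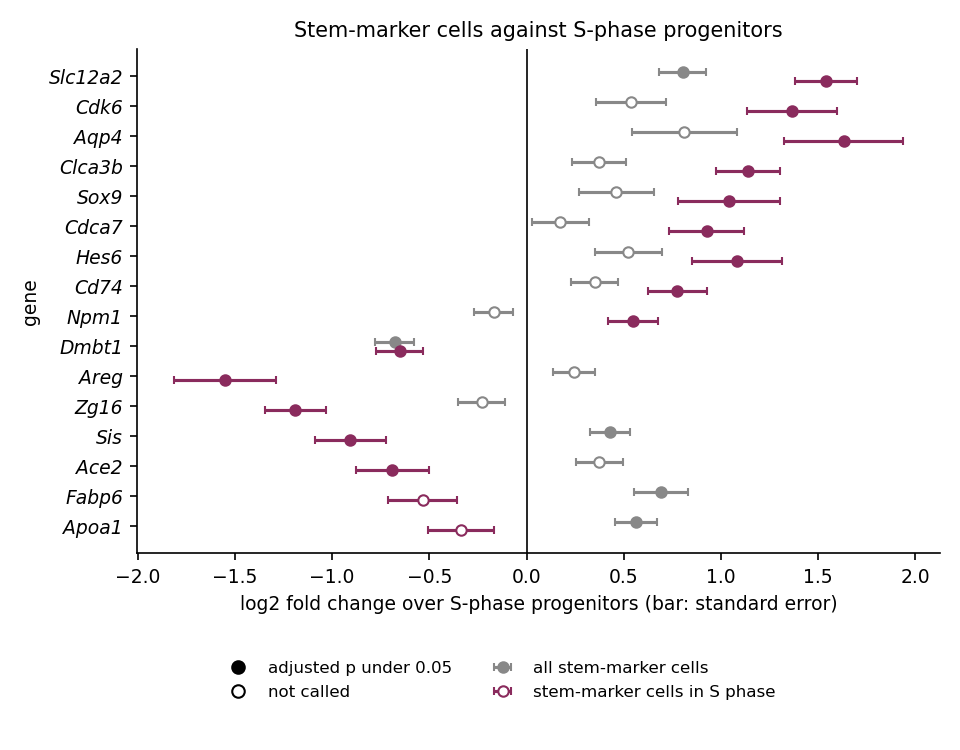
Log2 fold change over S-phase progenitors (horizontal axis, bars 1 standard error) of 16 genes (vertical axis) for all stem-marker cells (grey) and for those in S phase (purple), filled where the edgeR adjusted p was under 0.05. Slc12a2 is higher and Dmbt1 lower in both, while Sis lies at 0.43 in the first and at -0.91 in the second.

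The count of called genes in the comparison of all stem-marker cells was 21 without sham 3, which gave the most stem-marker UMIs among sham libraries. It was 13 when both classes were limited to cells under 2% enterocyte transcripts, and 30 with DESeq2.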

How the data were processed

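Droplet libraries were made with 10x Chromium v2 3′ chemistry and counted with Cell Ranger, per the labels, which mark its version with a question mark. The submitters' processing notes name the builds mm10 and GRCm38. The deposited values are UMI counts, not normalized, in 1 matrix for each library. Gene coordinates come from GENCODE vM21 (GRCm38).

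Symbols on several rows (56 of the symbols of 27998 genes) were kept for 1 row. Doublets were scored against simulated pairs and kept, except in an alternative. Counts were summed per library and class and tested with edgeR 4.0.16 (TMM, filterByExpr, quasi-likelihood test, Benjamini-Hochberg over all genes tested). DESeq2 1.42.0 was an alternative. On simulated counts the resection test recovered 66.3% of genes changed by a log2 fold of 2 and 90.5% at 3, on 5038 genes with 8 false calls. For the class by treatment term these were 11.5% and 43.3% on 9482 genes with 0 false calls. The simulations used the same fixed dispersion for every gene, which was not estimated from these data. The recovery rates therefore need not hold for the real libraries.

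The members and the 31 gene lists were chosen with earlier results of these data known. The labels give no batch. Named genes were the 6 higher and 6 lower by p with mean CPM of at least 20 and groups that did not overlap, up to 3 per list with mean CPM of at least 5, and the markers. Against progenitors, they were the 10 largest changes in each direction that all 5 libraries shared, with mean CPM of at least 50, and for the class by treatment term the 5 of lowest p. Markers, list members called in the comparison with progenitors, Npm1, Areg in all stem-marker cells, Tubb5 and Ccnd1 were named after their values were seen where the rule did not take them. Intervals cover counting error only.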

Additional observations from a re-analysis of the deposited data

Results flagged for a closer look

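The 8 genes whose resection effect differed between stem-marker cells and the other epithelial cells of the same libraries are given with their difference in log2 fold change (edgeR's quasi-likelihood test of the class by treatment term). Edn1 differed by 1.82, Gm14851 by 1.01, Spink4 by 0.97, Stmn1 by 0.92 and Clca3b by 0.90. Gzma differed by -1.79, Ccl5 by -1.24 and Fabp1 by -1.09. The adjusted p ranged from 1.52e-05 for Edn1 to 0.0495 for Stmn1, and DESeq2 called none of the 8 genes.

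Clca3b went from a mean of 147 to 355 CPM in stem-marker cells and from 54.9 to 64.8 CPM in the others. Spink4, a gene of goblet and Paneth cells, went from 732 to 608 CPM in stem-marker cells and from 2409 to 1080 CPM in the others. Stmn1, a microtubule regulator of dividing cells, went from 173 to 286 CPM and from 90.3 to 78.7 CPM. Gm14851 went from 112 to 156 CPM and from 5005 to 2902 CPM. The 10% limit on antimicrobial transcripts applied to stem-marker cells but not to the other epithelial cells. Cells classed as antimicrobial made up 229 of 1296 kept cells for sham 1, 282 of 3914 for sham 2 and 133 of 2848 for sham 3. For resection 1 it was 183 of 3792, and for resection 2 it was 331 of 7105. How much this unequal limit contributed to the Gm14851 and Spink4 differences was not tested. Gzma and Ccl5 went from 217 to 32.6 CPM and from 251 to 51.5 CPM in stem-marker cells, in which T cell droplets were kept, while the other epithelial cells excluded them. Without those droplets the differences of Gzma and Ccl5 were 0.38 and 0.11, with edgeR adjusted p = 0.983 and 1.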

How the results depend on the processing

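For the resection effect, the count of called genes was 1 and lay between 0 and 2 when each library was left out, with 0 without sham 2. It was 0 in cells with at least 3 stem genes and under thinning to 2000 UMIs, 2 with the antimicrobial limit at 1%, 2 in cells with fewer than 4 S-phase genes, and 3 in cells with Lgr5, Ascl2 or Gkn3. It was 6 with the library set, sham 1 and resection 1 against the others, as a term. Of these 5 were higher and 1 lower, with 258 genes at an unadjusted p under 0.05. The count was 11 without a filter. Among list genes the counts under the same settings were 0, 0, 2, 2, 3, 5 and 6, and 0 to 2 when a library was left out.

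The labels number replicates 1 and 2 in both groups without saying that these pair the libraries. With the replicate number as a block 32 genes were called (13 higher, 19 lower), 17 of them among the lists, and the share of stem-marker cells differed by 0.726 points within the pairing. The sham library with the most stem-marker UMIs has no resection library of the same number. It was alone in its block and added nothing to the resection term. Few degrees of freedom were left for the error, so the 32 calls are not directly comparable with the count of the main fit.

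The difference in share, 0.110 points, became -0.00121 under thinning, -0.0718 for cells under 2% enterocyte transcripts and -0.140 in the library set with sham 2, sham 3 and resection 2. Leaving out each library gave -0.212 to 0.726, with -0.183 without sham 1 and -0.212 without sham 2. Uncalled resection values that changed sign were Fabp1 at -0.0616 (under 2% enterocyte transcripts), Fabp2 at -0.28 and Olfm4 at -0.22 (at least 3 stem genes), Gzma at 0.33 (without T cell droplets) and Ccl5 at 1.42 (thinned). Fabp1 is on the enterocyte list, so the 2% limit also limits Fabp1 itself. When a library was left out, Olfm4 ranged from -0.20 (without sham 2) to 1.84 (without sham 3).

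Against S-phase progenitors 137 genes were called, and 21 to 134 when each library was left out, with 87 without resection 1 and 21 without sham 3. The count was 30 with DESeq2, 72 with progenitors free of stem genes, 13 with both classes under 2% enterocyte transcripts, 223 in cells with at least 3 stem genes, 224 in S-phase stem-marker cells and 219 without the cells of highest doublet score. In cells with at least 3 stem genes, Apoa1 was -0.52, Fabp6 -0.99, Sis -1.17, Areg -0.94, Tubb5 0.45 and Ccnd1 0.32. In S-phase cells they were -0.34, -0.53, -0.91, -1.55, 0.22 and 0.0909, and Bmp2 was -0.0440. Under 2% enterocyte transcripts Apoa1, itself on the enterocyte list, was -0.0175 and Areg -0.49.

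For the class by treatment term 8 genes were called, and 3 to 67 when each library was left out, 67 without sham 2. The count was 0 with DESeq2, 2 in cells with at least 3 stem genes, 14 under 2% enterocyte transcripts, 4 without T cell droplets, 4 without a filter and 4 without the highest doublet scores. Spink4 was -1.13 in cells with at least 3 stem genes, and without T cell droplets Gzma was 0.38 and Ccl5 0.11. The cause of these changes was not tested. The settings by Lgr5, Ascl2 or Gkn3, enterocyte transcripts and T cell droplets were chosen after seeing the data. Sham 1, with 11 stem-marker cells, limits what can be seen at low counts.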
